A study of Mus musculus with 4 samples.

Results

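The members described here are the abundant long non-coding RNAs (lncRNAs) of mouse pancreatic islets. Rows annotated as lncRNA were taken when their raw reads over all 4 libraries summed to at least 1000, which held for 56 of 11288 lncRNA rows. Mir22hg, Gm3294 and 4931431B13Rik, whose sums were all below 1000, were added by name, which gave 59 members of 56748 genes in the table. The snoRNA host genes Gas5 and Snhg1 were kept apart as a group of 2. Members were thus chosen by their summed reads, so that abundance itself is a description here. The sum took in both glucose levels compared below, so a member could reach the threshold mainly through the level at which it was higher. The threshold cut a continuous range: Zfas1 (1060 reads), Gm4419 (1051), Gm13421 (1012) and D630024D03Rik (1003) were just inside it, and B930095G15Rik (989), Gm3924 (987), Mirg (968) and 5031425E22Rik (954) were just outside.

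Islets were isolated from male C57BL/6J mice aged 6 to 8 weeks. One group was kept at 25 mM glucose for 2 h and the other at 2.5 mM glucose for 2 h, with 2 poly(A) RNA-seq libraries per group (replicate 1 and replicate 2). Both groups had been in glucose-free medium for 4 h beforehand, so the 2.5 mM islets were not an untreated baseline, and both received cycloheximide, an inhibitor of translation, at 100 µg/mL for the last 15 min. The study's methods describe islets of each mouse divided between both glucose levels and pooled over several mice, with reference to its ribosome profiling. For RNA-seq they state only that the culture conditions were the same. No library without cycloheximide was analysed here.

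Long non-coding RNAs are transcripts that are not known to be translated into a conserved protein. Malat1 is concentrated in nuclear speckles and Neat1 is the scaffold of paraspeckles, nuclear bodies that hold RNA-binding proteins such as Sfpq and Nono. Meg3 and Rian are read from the maternal copy of the imprinted Dlk1-Dio3 domain, which also holds a large group of miRNAs and C/D box snoRNAs. snoRNA host genes carry small nucleolar RNAs in their introns, and their spliced RNAs are commonly removed by nonsense-mediated decay, a pathway that needs translation. The mature 3′ ends of Malat1 and of the long Neat1 isoform carry a triple helix in place of a poly(A) tail, so that poly(A) libraries do not sample all of their molecules.

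miRNA genes of the table lay inside 5 of the 59 members: Mir22 in Mir22hg, Mir129-1 in Gm3294, Mir1906-1 and Mir770 in Meg3, Mir1188, Mir341 and Mir370 in Rian, and Mir344-2 in A330076H08Rik. RefSeq listed 14 mature miRNAs for them, with 14 different seeds. The mature sequences below belong to the hosts whose levels are described first or that were most read. They are given 5′ to 3′ with GRCm38.p6 coordinates, and capitals mark the seed, bases 2 to 8, which pairs with target RNAs.
miR-22-5p (from Mir22 in Mir22hg, chr11:75463734-75463755, plus strand): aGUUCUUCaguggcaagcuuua
miR-22-3p (from Mir22 in Mir22hg, chr11:75463772-75463793, plus strand): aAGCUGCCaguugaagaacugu
miR-129-5p (from Mir129-1 in Gm3294, chr6:29022624-29022644, plus strand): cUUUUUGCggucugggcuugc
miR-770-5p (from Mir770 in Meg3, chr12:109563710-109563731, plus strand): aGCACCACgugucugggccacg
miR-770-3p (from Mir770 in Meg3, chr12:109563744-109563765, plus strand): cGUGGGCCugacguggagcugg
miR-370-5p (from Mir370 in Rian, chr12:109618270-109618289, plus strand): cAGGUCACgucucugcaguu
miR-370-3p (from Mir370 in Rian, chr12:109618305-109618326, plus strand): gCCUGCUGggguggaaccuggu
The libraries did not measure these small RNAs. The rows of Mir22 and Mir129-1 held 0 reads in every library, so all values below are those of the host transcripts.

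RefSeq promoter windows, the 250 bases before and the 50 bases after a start site in GRCm38.p6, were found for 32 of the 56 abundant members and for Mir22hg. Windows of Mir22hg and Malat1 are shown because these RNAs stood on opposite sides of the comparison. Capitals mark TGACG or its reverse complement CGTCA, the short form of the cAMP response element (CRE).
Mir22hg promoter window (chr11:75461289-75461588, plus strand): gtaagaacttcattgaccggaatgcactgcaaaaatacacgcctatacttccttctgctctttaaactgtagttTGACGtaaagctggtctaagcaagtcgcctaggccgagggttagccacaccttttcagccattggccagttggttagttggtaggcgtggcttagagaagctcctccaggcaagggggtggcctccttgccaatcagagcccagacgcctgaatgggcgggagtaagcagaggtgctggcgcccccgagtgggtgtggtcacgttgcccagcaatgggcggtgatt
Malat1 promoter window (chr19:5802623-5802922, minus strand): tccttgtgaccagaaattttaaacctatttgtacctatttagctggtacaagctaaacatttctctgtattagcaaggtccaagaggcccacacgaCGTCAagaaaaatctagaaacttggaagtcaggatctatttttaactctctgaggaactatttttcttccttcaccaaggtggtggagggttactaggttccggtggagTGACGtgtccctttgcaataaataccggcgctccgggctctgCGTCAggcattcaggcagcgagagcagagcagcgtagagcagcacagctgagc
The short form occurred 1 time in the Mir22hg window and 3 times in the Malat1 window. On either strand it was in the windows of 11 of 32 members (34.4%), against 23.0% of 27025 genes with a window. The full site TGACGTCA, which holds the short form on both strands, was in the windows of Meg3 and Gas5, 2 of 32 members (6.25%) against 2.03% of genes. The E-box CACGTG was in 6 of 32 (18.8% against 8.09%) and the AP-1 site TGANTCA in 2 of 32 (6.25% against 8.97%). These are matches of letters, and no binding was measured.

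Libraries held 17279505 to 19136068 counted reads. Levels below are in CPM, reads scaled to a common library size with edgeR's TMM factors, and log2 fold changes are 25 mM over 2.5 mM. High-glucose replicate 2 stood apart: its log2 CPM correlated at 0.939 to 0.96 with the other libraries, against 0.967 to 0.981 among those. Markers of β cells summed to 87360 CPM (replicate 1) and 200500 CPM (replicate 2) at 25 mM, against 80940 and 110700 CPM at 2.5 mM. Most of these sums came from Ins1, Ins2 and Iapp. G6pc2 and Ucn3 were also highest in high-glucose replicate 2, whereas Mafa and Slc2a2 were not. Mafa had 558 and 1382 CPM at 25 mM, against 545 and 1513 CPM at 2.5 mM. Slc2a2 had 420 and 364.5 CPM at 25 mM, against 239 and 363 CPM at 2.5 mM. Every listed islet hormone gene was present. Markers of other pancreatic cells were also present, and no listed marker was at 0 in all libraries. Acinar markers summed to 765.5 and 288.8 CPM at 25 mM and to 319.8 and 352 CPM at 2.5 mM, and macrophage markers to 80.1 and 104.5 CPM at 25 mM and to 80.9 and 84.6 CPM at 2.5 mM. In bulk islets, fewer cells of a type and less RNA per cell cannot be told apart.

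The members made up a smaller part of the RNA at 25 mM. They held 0.3069% (95% Wilson interval 0.3044 to 0.3094%) and 0.2538% (0.2515 to 0.2561%) of all counts at 25 mM, and 0.374% (0.3711 to 0.3769%) and 0.3385% (0.3359 to 0.3411%) at 2.5 mM. The intervals cover counting error only. Both 25 mM libraries were below both 2.5 mM libraries. Malat1 and Neat1 held 14.7% and 8.78% of the members' reads at 25 mM, and 22.7% and 20.2% at 2.5 mM. Without this pair of genes the members summed to 2460 and 2500 CPM at 25 mM and to 2790 and 2770 CPM at 2.5 mM. Without the 5 most counted members, the rest summed to 1651 and 1479 CPM at 25 mM, against 1882 and 1564 CPM at 2.5 mM. The groups then overlapped, with the sum lower at 25 mM within each replicate. All lncRNA rows together held 0.6666% and 0.5503% of counts at 25 mM and 0.7125% and 0.604% at 2.5 mM, and the members made up 46.0% and 46.1% of those counts at 25 mM, against 52.5% and 56.04% at 2.5 mM.

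Mir22hg, the host of miR-22, had 9.45 and 18.5 CPM at 25 mM, against 2.90 and 3.12 CPM at 2.5 mM (replicates 1 and 2). Gm3294, which spans Mir129-1, had 10.2 and 17.3 CPM at 25 mM, against 2.12 and 2.53 CPM at 2.5 mM. 4931431B13Rik had 2.78 and 5.64 CPM at 25 mM, against 0.0558 and 0 CPM at 2.5 mM. In all 3 RNAs both 25 mM libraries were above both 2.5 mM libraries, and high-glucose replicate 2 was the highest. They had been added to the members by name, so these differences are a description and no test of them is given. The log2 ratio was 1.70 in the replicate 1 libraries and 2.57 in the replicate 2 libraries for Mir22hg, and 2.26 and 2.77 for Gm3294. For 4931431B13Rik the reads were 155 at 25 mM and 1 at 2.5 mM, a depth-scaled ratio of 151 with an exact 95% counting interval of 26.7 to 6000. The interval pools both libraries of each level. It covers counting error only, leaves out the spread between libraries and is no test of this gene.

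In the table's own positions, which are printed without a genome build, 4931431B13Rik lay on chromosome 7 (127791222 to 127802500, minus strand, 1437 exonic bases) within the span of Itgad on the plus strand. Itgad, an integrin alpha subunit of leukocytes, had 44 and 66 reads at 25 mM and 5 and 6 reads at 2.5 mM. Whether counting used the strand is not given in the sources used here, so reads of this pair cannot be assigned to 1 of them with certainty. Mir22hg (chromosome 11, 75352365 to 75357502, plus strand, 1924 exonic bases) overlapped Tlcd2 on the same strand, and Tlcd2 had 56 and 49 reads at 25 mM and 29 and 18 reads at 2.5 mM. Gm3294 (chromosome 6, 28981451 to 29028921, plus strand, 7549 exonic bases) overlapped no coding gene.

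**Figure D1:**
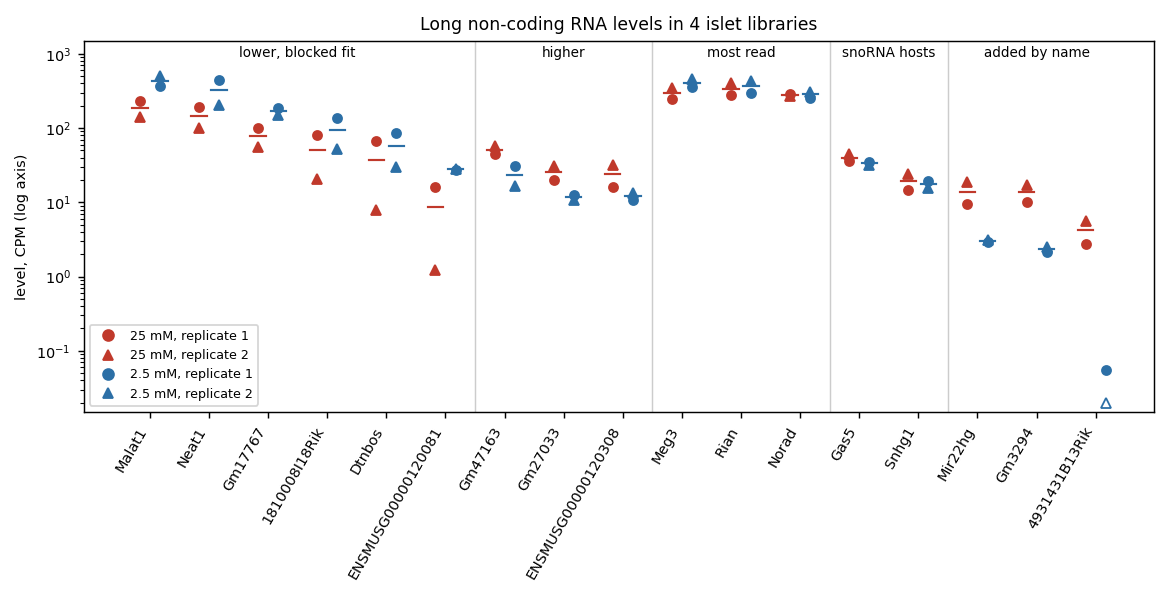
Levels of 17 members in CPM on a log axis, with 25 mM (red) left of 2.5 mM (blue) for each gene; circles are replicate 1, triangles replicate 2, bars the mean of 2 libraries, and the open triangle marks 0 CPM drawn at the bottom. Malat1 and Gm17767 lay lower in both 25 mM libraries, Mir22hg and Gm3294 lay higher, and the red triangle of ENSMUSG00000120081 stood at 1.24 CPM, far below its circle at 16.2 CPM.

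Across the 56 abundant members, the comparison of 25 mM with 2.5 mM glucose asked which of them differed after 2 h. In edgeR's quasi-likelihood test without a block, 0 of 56 passed an adjusted p of 0.05, as did 0 of 15665 genes tested (background 0.0%). At an unadjusted p under 0.05 there were 9 members, 3 higher and 6 lower, against 10.5% of all genes tested. With the replicate number as a block, 9 of 56 passed (16.1%), 3 higher and 6 lower, where 6.86% of all genes passed, 1.85% higher and 5.01% lower. Among genes with at least 1000 reads 7.89% passed, and among tested lncRNA rows outside the members 6.7%. The pool with at least 1000 reads was chosen by the same sum over both glucose levels as the members. How that choice bears on the 9 calls was not tested. DESeq2 without a block passed 2 members, Gm17767 and Malat1, both lower, against 1.62% of genes and 1.14% lower. DESeq2 with the block passed 5 of the 9 and not Dtnbos, ENSMUSG00000120081, ENSMUSG00000120308 or Gm27033. That was 8.93% of members, against 2.14% of genes. In edgeR without the block but with no filter on low counts, 7 of the 9 passed, without Dtnbos and ENSMUSG00000120308. These were 12.5% of members, against 2.29% of all genes and 5.2% of genes with at least 1000 reads. The replicate number may be a pairing, since the methods describe divided islets for ribosome profiling. Neither the methods nor the labels state it for these RNA libraries. The blocked fit has 1 residual degree of freedom and takes its spread from the trend over all genes, so that a gene whose replicates disagree can still pass.

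Of the 9 members, 7 had groups that did not overlap. Over all 56, the groups did not overlap in 27 (48.2%), 12 higher and 15 lower at 25 mM, against 48.3% of all genes. The share of members with separated groups was thus close to the background. Log2 ratios were above 0 in both replicates for 15 members, below 0 in both for 26, and opposite for 15.

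**Figure D2:**
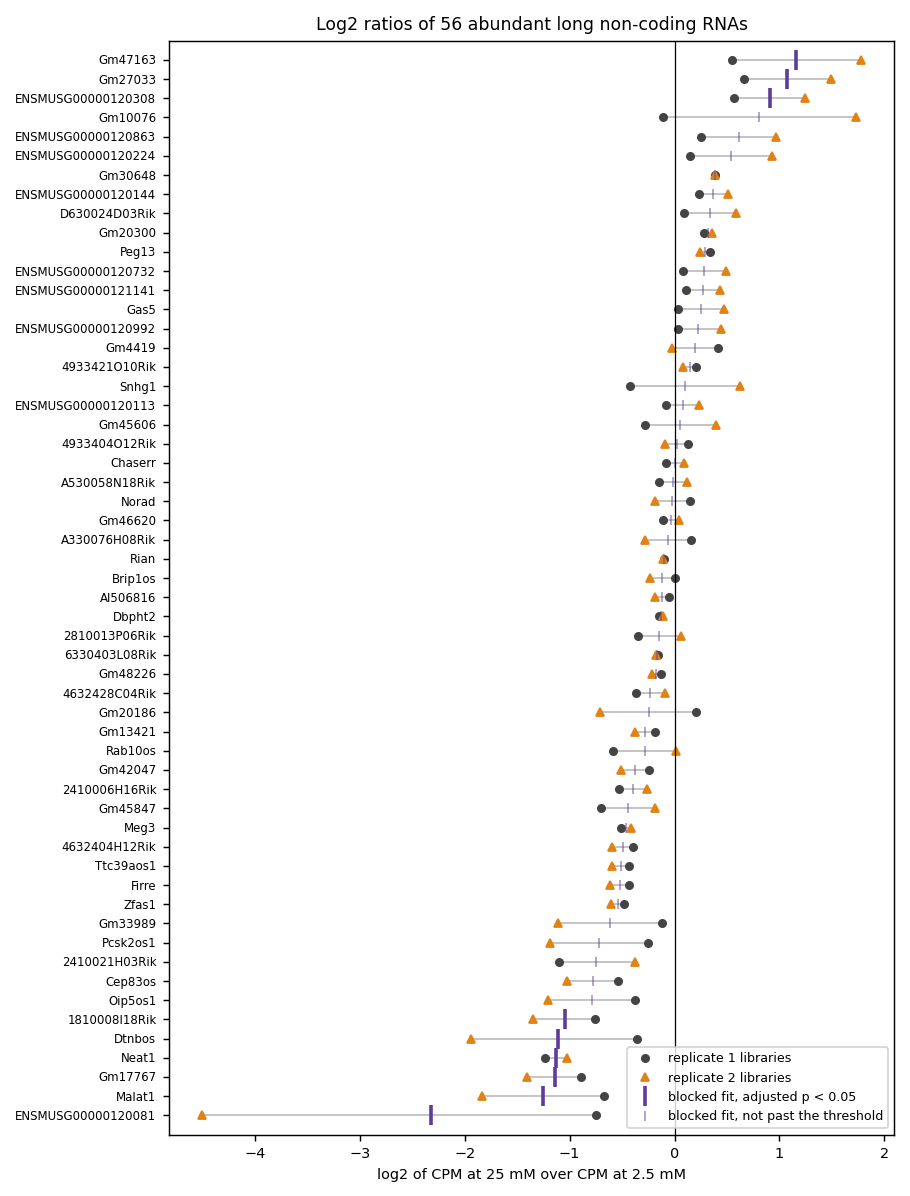
Log2 ratio of CPM at 25 mM over CPM at 2.5 mM for 56 members, ordered by the blocked fit; circles are the replicate 1 libraries, triangles the replicate 2 libraries, and vertical ticks the blocked estimate (thick where adjusted p was under 0.05). The 3 RNAs at the top and 6 at the bottom carry thick ticks, and the line of ENSMUSG00000120081 runs from -0.75 to -4.50.

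The nuclear RNAs Malat1 and Neat1 were lower at 25 mM. Malat1 (chromosome 19, 5845717 to 5852704, minus strand) had 232 and 139 CPM at 25 mM, against 369 and 496 CPM at 2.5 mM. Both 25 mM libraries were below both 2.5 mM libraries. In the blocked fit Malat1 fell 2.38-fold (log2 fold change -1.25 ± 0.27, SE, adjusted p = 2.86e-04), and it also passed in DESeq2 without the block (adjusted p = 0.012). The log2 ratio was -0.67 in replicate 1 and -1.83 in replicate 2.

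Neat1 (chromosome 19, 5874736 to 5895898, minus strand, 21163 exonic bases) had 191.5 and 101 CPM at 25 mM, against 450.2 and 206 CPM at 2.5 mM. High-glucose replicate 1 and low-glucose replicate 2 were close to each other, and the fall showed within each replicate, with log2 ratios of -1.23 and -1.03. The blocked log2 fold change was -1.13 ± 0.27 (edgeR, adjusted p = 0.00158), and DESeq2 without the block gave an adjusted p of 0.0882. The unblocked log2 fold change was -1.165, and -0.50 without low-glucose replicate 1. With the dependence of log2 ratios on gene length removed, Neat1 had -0.50 (adjusted p = 0.0859) and Malat1 -1.03 (adjusted p = 5.56e-06) in the blocked fit, so that the call of Neat1 was lost there and that of Malat1 was not. The table cannot separate the short from the long isoform of Neat1, so 21163 bases may not be the length of the RNA that was read. This limits its value with the length trend removed and its level per kilobase.

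Among 16 listed proteins of paraspeckles, 1 passed in the blocked fit and it was higher: Sfpq, a core paraspeckle protein, with 168 and 168 CPM at 25 mM, against 93.4 and 91.9 CPM at 2.5 mM (log2 fold change 0.86 ± 0.28, adjusted p = 0.0361). Its partner Nono had 198 and 211 CPM at 25 mM and 222 and 223 CPM at 2.5 mM (adjusted p = 0.865). In the same fit 6.86% of all genes passed, so 1 of 16 was near the background share. The list's median log2 fold change was 0.12, against -0.01 over all genes tested.

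Gm17767 (chromosome 1, 51546245 to 51635877, minus strand) was lower in both 25 mM libraries. It had 101 and 56.2 CPM at 25 mM, against 186 and 148 CPM at 2.5 mM. The groups did not overlap, and the log2 fold change was -1.14 ± 0.28 in the blocked fit (edgeR, adjusted p = 0.00273; DESeq2 without the block, 0.0436). With the length trend removed it was -1.15. Without high-glucose replicate 2 the unblocked value was -0.72, against -1.09 with all libraries. Its nearest coding gene was Nabp1, a single-stranded DNA-binding protein whose start lay 28661 bases away on the same strand. Nabp1 had 54.9 and 27.0 CPM at 25 mM, against 141 and 120 CPM at 2.5 mM (log2 fold change -1.75 ± 0.29, adjusted p = 5.85e-07).

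ENSMUSG00000120081, which has no symbol, had 16.2 and 1.24 CPM at 25 mM, against 27.2 and 28.2 CPM at 2.5 mM. It held 320 and 22 reads at 25 mM, against 487 and 524 reads at 2.5 mM. Its sum thus reached the read threshold for members mainly through the 2.5 mM libraries. The replicate 2 library at 25 mM was far below the other libraries, and the log2 ratio was -0.75 in replicate 1 and -4.50 in replicate 2. The blocked log2 fold change of -2.32 ± 0.33 (adjusted p = 1.38e-09) therefore rested mainly on high-glucose replicate 2. The unblocked value was -1.66, and it was -0.76 without that library and -4.47 without high-glucose replicate 1. DESeq2 gave an adjusted p of 0.439 with the block and 0.636 without it. This RNA (chromosome 11, 31820874 to 31821796, plus strand) ended 415 bases before the start of Cpeb4 on the same strand. Cpeb4, a cytoplasmic polyadenylation element-binding protein, had 109 and 50.1 CPM at 25 mM, against 178 and 176 CPM at 2.5 mM (log2 fold change -1.26 ± 0.29, adjusted p = 8.17e-04).

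1810008I18Rik and Dtnbos were the other members called lower in the blocked fit, and their groups overlapped. 1810008I18Rik had 79.8 and 20.7 CPM at 25 mM, against 134.5 and 52.6 CPM at 2.5 mM (log2 fold change -1.04 ± 0.28, adjusted p = 0.00832). Dtnbos, antisense to the dystrobrevin gene Dtnb, had 66.1 and 7.79 CPM at 25 mM, against 84.7 and 29.9 CPM at 2.5 mM (log2 fold change -1.11 ± 0.29, adjusted p = 0.00562). Both were higher in replicate 1 than in replicate 2 at each glucose level, and lower at 25 mM within each replicate. In DESeq2 the adjusted p of 1810008I18Rik was 0.0354 with the block and 0.737 without it, and that of Dtnbos 0.0975 with the block and 0.887 without it. The unblocked log2 fold change of 1810008I18Rik was -0.90, and it was -0.07 without low-glucose replicate 1, -0.21 without high-glucose replicate 2 and -2.17 without high-glucose replicate 1. For Dtnbos it was -0.63, and it turned to 0.23 without high-glucose replicate 2 and to 0.30 without low-glucose replicate 1. Dtnb itself had a log2 fold change of -0.15 (adjusted p = 0.825).

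The members called higher were 3 short RNAs. Gm47163 (1665 exonic bases) had 44.8 and 56.7 CPM at 25 mM, against 30.7 and 16.5 CPM at 2.5 mM (log2 fold change 1.16 ± 0.28, adjusted p = 0.0026). Gm27033 (544 exonic bases) had 19.95 and 30.5 CPM at 25 mM, against 12.6 and 10.9 CPM at 2.5 mM (1.08 ± 0.29, adjusted p = 0.00646). ENSMUSG00000120308 (1163 exonic bases) had 16.1 and 32.1 CPM at 25 mM, against 10.8 and 13.5 CPM at 2.5 mM (0.91 ± 0.29, adjusted p = 0.0284). In each, both 25 mM libraries were above both 2.5 mM libraries, and the log2 ratio in replicate 2 was the larger. Mean levels were 25.2 CPM at 25 mM and 11.7 CPM at 2.5 mM for Gm27033, and 24.1 and 12.2 CPM for ENSMUSG00000120308. The sums of both thus reached the read threshold for members mainly through the 25 mM libraries. How this bears on their calls was not tested. DESeq2 with the block passed Gm47163 (adjusted p = 0.0453) and not Gm27033 (0.0813) or ENSMUSG00000120308 (0.162), and without the block it passed none of them (adjusted p of 0.0551, 0.0641 and 0.2). The unblocked value of ENSMUSG00000120308 was 0.98, and it was 0.41 once high-glucose replicate 2 was left out. With the length trend removed in the blocked fit, Gm47163 (0.92, adjusted p = 8.71e-04) and Gm27033 (0.82, adjusted p = 0.00936) passed and ENSMUSG00000120308 (0.64, adjusted p = 0.0645) did not.

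Each of these 3 RNAs lay by a coding gene that did not pass. Gm27033 (chromosome 5, 147217530 to 147218073, plus strand) began 4872 bases beyond the end of Pdx1 on the same strand. Pdx1, a transcription factor that β cells need for insulin expression, had 210.1 and 182 CPM at 25 mM and 155 and 227 CPM at 2.5 mM (log2 fold change 0.06, adjusted p = 0.94). Gm47163 overlapped the adaptor gene Shc2 (-0.08, adjusted p = 0.925), and ENSMUSG00000120308 overlapped the ubiquitin ligase gene Stub1 (0.28, adjusted p = 0.641), both on the opposite strand.

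Of the RNAs of imprinted domains, Meg3, Rian and Peg13 did not pass in the blocked fit. Meg3 had 249 and 348.5 CPM at 25 mM, against 355.5 and 463 CPM at 2.5 mM. Both 25 mM libraries were below both 2.5 mM libraries (log2 fold change -0.46 ± 0.26, edgeR with the block, adjusted p = 0.325), with log2 ratios of -0.51 and -0.41 in the replicates. Rian had 276 and 400.3 CPM at 25 mM, against 295 and 433 CPM at 2.5 mM, and its replicates differed more than its glucose levels (-0.10 ± 0.26, adjusted p = 0.879). These are among the longest members, with 19071 and 31981 exonic bases. With the length trend removed and the block, Meg3 turned to 0.15 (adjusted p = 0.721) and Rian to 0.63 (adjusted p = 0.0131), so that the direction of both depended on that step and Rian then passed. Peg13, read from the paternal copy within Trappc9, had 81.3 and 97.9 CPM at 25 mM, against 64.3 and 82.6 CPM at 2.5 mM (0.29 ± 0.28, adjusted p = 0.627). Mirg, a miRNA host farther along the same domain as Meg3 and Rian and just below the read threshold, had 12.2 and 22.9 CPM at 25 mM, against 8.04 and 9.51 CPM at 2.5 mM (0.94 ± 0.29, edgeR with the block, adjusted p = 0.0284; DESeq2 without it, 0.201).

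The snoRNA host genes did not pass in either direction. Gas5 had 35.5 and 44.4 CPM at 25 mM, against 34.7 and 32.1 CPM at 2.5 mM (log2 fold change 0.25 ± 0.28, edgeR with the block, adjusted p = 0.684). Its libraries at 25 mM were above those at 2.5 mM, by little in replicate 1. Snhg1 had 14.65 and 24.2 CPM at 25 mM, against 19.7 and 15.7 CPM at 2.5 mM (0.10 ± 0.28, adjusted p = 0.898), and its log2 ratio was -0.42 in replicate 1 and 0.62 in replicate 2. The median of both genes was 0.18 with the block and 0.20 without, against -0.01 over all genes tested in either fit, and it was -0.08 without high-glucose replicate 2. snoRNA genes lay inside 6 of the 56 members: 13 in Rian, 10 in Gas5, 8 in Snhg1, 3 each in Zfas1 and 2410006H16Rik, and 1 in AI506816. Zfas1, which is a snoRNA host under another name, had 11.97 and 11.4 CPM at 25 mM, against 16.7 and 17.3 CPM at 2.5 mM (-0.54 ± 0.29, adjusted p = 0.296). Gas5 and Zfas1 were thus separated between groups in opposite directions, without passing the test. Gas5 overlaps Zbtb37 on the opposite strand, and that zinc finger gene had 10.8 and 3.33 CPM at 25 mM, against 15.8 and 17.4 CPM at 2.5 mM (log2 fold change -1.42, edgeR with the block, adjusted p = 4.68e-04; DESeq2 without it, 0.186). Its lowest value was in high-glucose replicate 2.

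Genes of the pathways that handle these RNAs were read against a background of 6.86% passing among all genes. Of 16 proteins of snoRNA particles 0 passed with the block (median log2 fold change 0.30, against -0.01 over all genes tested), and Nop56, a core protein of C/D box particles, had 86.3 and 133 CPM at 25 mM, against 56.5 and 70.5 CPM at 2.5 mM (adjusted p = 0.0794). Of 18 factors of nonsense-mediated decay 1 passed, Smg1, the kinase of Upf1, with 94.3 and 41.6 CPM at 25 mM, against 122 and 174 CPM at 2.5 mM (log2 fold change -1.22 ± 0.29, adjusted p = 0.00208). Without the block Smg1 passed neither in edgeR nor in DESeq2, and its lowest value was in high-glucose replicate 2. Of 16 tested genes of the nuclear RNA exosome 0 passed (median 0.17). Cycloheximide, present in both groups, blocks the translation on which nonsense-mediated decay depends, and its part in the levels of these hosts was not tested.

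Other members with known functions did not pass in the blocked fit. Norad, a cytoplasmic RNA that binds Pumilio proteins, had 284 and 273 CPM at 25 mM, against 257 and 309.5 CPM at 2.5 mM (log2 fold change -0.02 ± 0.26, adjusted p = 0.982). Firre, an X-linked nuclear RNA, had 46.5 and 48.0 CPM at 25 mM, against 62.8 and 73.4 CPM at 2.5 mM (-0.52 ± 0.28, adjusted p = 0.299). Oip5os1, known as Cyrano, which directs the degradation of miR-7, had 43.85 and 26.6 CPM at 25 mM, against 57.1 and 61.2 CPM at 2.5 mM (-0.79 ± 0.28, adjusted p = 0.0649). Norad overlapped between groups, whereas Firre and Oip5os1 were lower in both 25 mM libraries. Dbpht2 had 88.6 and 113 CPM at 25 mM, against 98.0 and 122 CPM at 2.5 mM, and ENSMUSG00000121141 had 90.6 and 113 CPM at 25 mM, against 83.8 and 84.2 CPM at 2.5 mM. Xist, the RNA of the inactive X chromosome, had 1 and 0 reads at 25 mM and 5 and 0 reads at 2.5 mM in these male islets.

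Read counts and levels per length ranked the members differently. By mean CPM the same 5 RNAs led at both glucose levels, in another order. At 25 mM the order was Rian (338 CPM), Meg3 (299), Norad (278), Malat1 (186) and Neat1 (146), and at 2.5 mM it was Malat1 (433), Meg3 (409), Rian (364), Neat1 (328) and Norad (283). These 5 held 42.7% and 46.0% of the members' reads at 25 mM and 47.9% and 55.0% at 2.5 mM. Per kilobase of exonic length the order at 25 mM began with Gm10076 (60.7 CPM per kilobase), ENSMUSG00000121141 (56.8), Norad (56.3), Gm27033 (46.4) and ENSMUSG00000120113 (39.0). At 2.5 mM it began with Malat1 (61.9 CPM per kilobase), Norad (57.3), ENSMUSG00000121141 (46.8), Gm17767 (42.05) and ENSMUSG00000120113 (36.95). Malat1 stood at 33.2 and 19.9 CPM per kilobase at 25 mM, against 52.85 and 71.0 at 2.5 mM, and Norad at 57.45 and 55.2 at 25 mM, against 52.0 and 62.6 at 2.5 mM. Norad thus had the highest mean over all 4 libraries, 56.8 ± 4.46 CPM per kilobase (SD), without being first at either glucose level. Over all 4 libraries Meg3 was at 18.6 ± 4.58, Neat1 at 11.2 ± 7.06 and Rian at 10.98 ± 2.41 CPM per kilobase, places 14, 22 and 23 of 59. The median over the 56 was 9.15 CPM per kilobase, and the mean of Norad was 39.7-fold that of the lowest of them, Gm33989. Gm10076 is uncertain, since its transcript in GENCODE vM21 matched Rpl41, a ribosomal protein gene, at 99% identity over 100% of its length. Rpl41 had 549 and 820 CPM at 25 mM, against 490 and 508 CPM at 2.5 mM, and Gm10076 had 17.2 and 32.2 CPM at 25 mM, against 18.5 and 9.73 CPM at 2.5 mM.

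**Figure D3:**
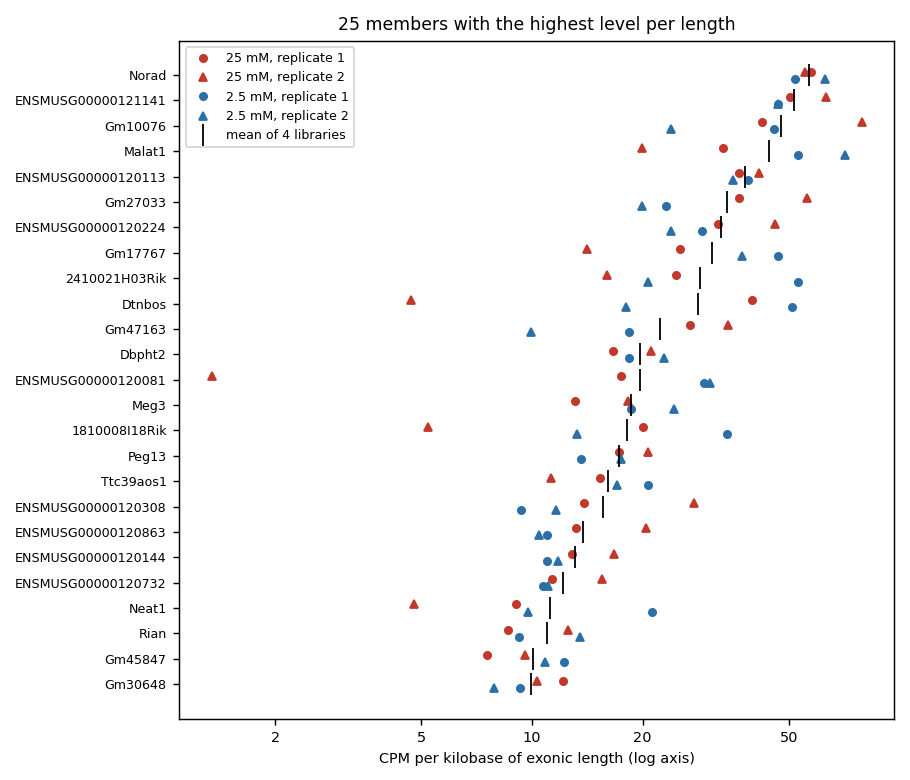
CPM per kilobase of exonic length (log axis) for the 25 members with the highest mean of 4 libraries (black ticks); red is 25 mM, blue 2.5 mM, circles replicate 1, triangles replicate 2. The points of Norad lie close together around 56.8, while those of ENSMUSG00000120081 and Dtnbos spread widely, with high-glucose replicate 2 at the left.

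Log2 fold changes of the members fell with their length. In 4 classes of 14 members by exonic length, the median blocked log2 fold change was 0.33 in the shortest (407 to 1875 bases), 0.08, -0.15, and -0.48 in the longest (5676 to 31981 bases). In the replicate 2 libraries the medians were 0.50, 0.07, -0.20 and -0.50, and in the replicate 1 libraries 0.10, -0.31, -0.14 and -0.39. In the longest class 13 of 14 were below 0. After removal of the trend estimated from all genes, the medians were 0.08, -0.02, -0.04 and -0.10. With the block, 11 of 56 then passed, against 8.71% of genes: 3 higher (Gm47163, Gm27033 and Rian, background 3.75%) and 8 lower (background 4.96%), with 2410021H03Rik, Pcsk2os1 and Ttc39aos1 joining Malat1, Gm17767, ENSMUSG00000120081, 1810008I18Rik and Dtnbos. Pcsk2os1, antisense to the prohormone convertase gene Pcsk2, had 17.5 and 13.8 CPM at 25 mM, against 20.9 and 31.3 CPM at 2.5 mM, and Ttc39aos1 had 38.7 and 28.5 CPM at 25 mM, against 52.3 and 43.0 CPM at 2.5 mM.

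**Figure D4:**
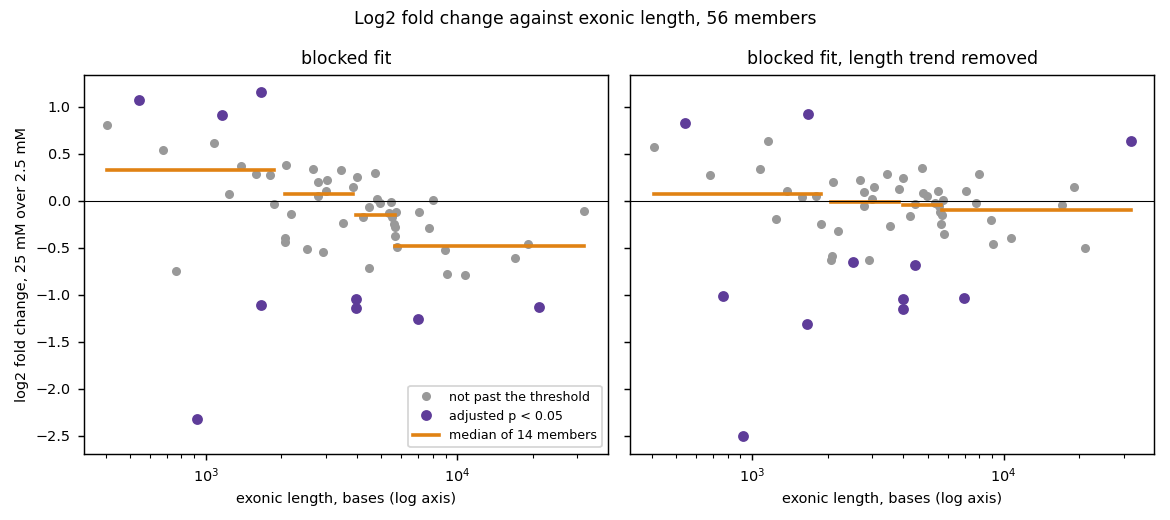
Log2 fold change against exonic length (log axis) of 56 members in the blocked fit, left, and with the length trend removed, right; purple points passed an adjusted p of 0.05 and orange bars are medians of 14 members. The bars step down from 0.33 to -0.48 at the left and stay between 0.08 and -0.10 at the right.

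The 9 members without a symbol, known only by an Ensembl identifier, had a median length of 1244 bases, and 8 of them had a log2 fold change above 0, against 7682 of 15665 genes tested. They lay close to coding genes: 4 were on the same strand downstream of a gene's end (by Cmip, Hipk2, Arf6 and Arl10), 1 on the same strand upstream of a start (by Cpeb4), 3 on the opposite strand upstream of a start (by Fam120a, Vars and Tbc1d22a), and 1 overlapped Stub1. Whether reads past the annotated end of these genes were counted in such rows was not tested. ENSMUSG00000120732, 5298 bases beyond the end of Hipk2, had a log2 fold change of 0.28. Hipk2, a protein kinase, had 72.9 and 9.54 CPM at 25 mM, against 93.7 and 120.3 CPM at 2.5 mM (log2 fold change -1.96, edgeR with the block, adjusted p = 6.81e-07; DESeq2 without it, 0.648), so that its value rested mainly on high-glucose replicate 2.

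Of all 56, 15 overlapped a coding gene on the opposite strand and 2 on the same strand (Peg13 in Trappc9 and Chaserr by Chd2). The nearest tested coding gene overlapped or lay within 5000 bases of 40 members, at a median distance of 488 bases over all 56. These were 54 different genes, since some members shared one, and 6 of the 54 passed in the blocked fit (11.1%), against 6.86% of all genes. Of these 6, Nabp1 alone passed in DESeq2 without the block. The nearest gene passed for 2 of the 9 called members, Gm17767 by Nabp1 and ENSMUSG00000120081 by Cpeb4, in the member's direction, and for 5 of the 47 others, D630024D03Rik among them, which shares Cpeb4. Chaserr, which represses Chd2 in cis, had 19.7 and 24.95 CPM at 25 mM, against 20.8 and 23.5 CPM at 2.5 mM, and its log2 fold change was 0.00 while that of Chd2 was -1.07 (adjusted p = 0.00579; DESeq2 without the block, 0.0666). A Chaserr transcript in GENCODE vM21 matched Chd2 at 100% identity over 2628 bases on the same strand. Reads in that part cannot be assigned to either gene with certainty.

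Some members differed more between replicates than between glucose levels. In 20 of 56 (35.7%) both replicate 1 libraries lay on one side of both replicate 2 libraries, against 34.5% of genes tested, and in 2 of 56 (3.57%, against 3.68%) by over 2-fold. ENSMUSG00000120992 had 51.4 and 8.24 CPM at 25 mM and 50.1 and 6.07 CPM at 2.5 mM in replicates 1 and 2. Dtnbos, described above, was the other. Stellate and fibroblast markers summed to 477 and 117 CPM at 25 mM and to 513 and 89 CPM at 2.5 mM, all 5 detected. Ductal markers, all 4 detected, summed to 411 and 225 CPM at 25 mM and to 468 and 129.9 CPM at 2.5 mM, most of it Spp1. Muc1 was also higher in replicate 1 at both glucose levels. Krt19 had 8.39 and 8.47 CPM at 25 mM and 7.09 and 4.95 CPM at 2.5 mM. Sox9 had 2.02 and 3.39 CPM at 25 mM and 3.35 and 3.06 CPM at 2.5 mM, so the ductal markers did not all differ alike. Endothelial markers went the other way, with 54.45 and 152 CPM at 25 mM and 47.4 and 168 CPM at 2.5 mM. The part of these cells in the levels of ENSMUSG00000120992, 1810008I18Rik and Dtnbos was not tested.

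**Figure D5:**
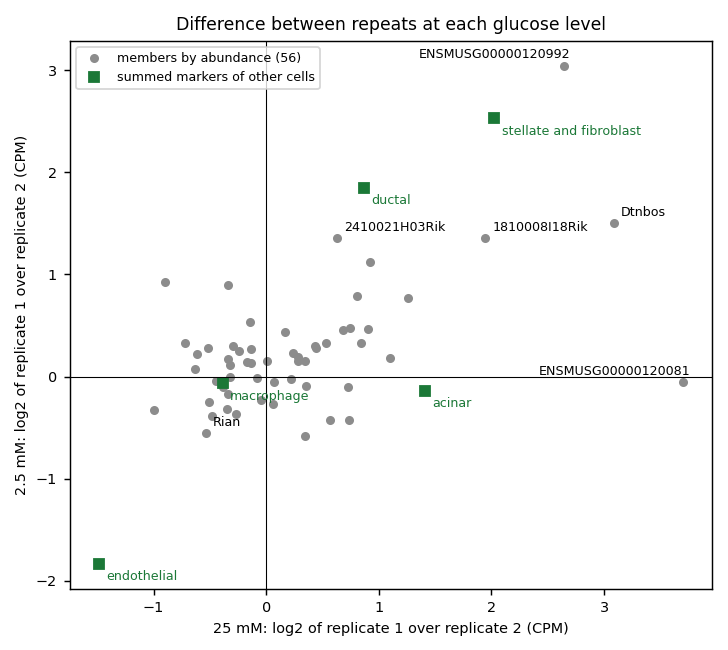
Log2 of replicate 1 over replicate 2 at 25 mM (x axis) and at 2.5 mM (y axis) for 56 members (grey) and for summed markers of other pancreatic cells (green squares). ENSMUSG00000120992, 1810008I18Rik and Dtnbos lie at the upper right, as do the sums of stellate markers and of ductal markers, the latter mostly Spp1. ENSMUSG00000120081 lies far right at about 0 on the y axis, since only its high-glucose replicate 2 was low.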

How the data were processed

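RNA was measured in 4 libraries of mouse islets, 2 at 25 mM and 2 at 2.5 mM glucose. The authors deposited raw read counts per gene from featureCounts, with exonic lengths, after cleaning with fastp and alignment with HISAT2 (2.2.1). Strandedness and the treatment of multi-mapped reads are not given in the sources used here. Positions are the table's own: the labels name mm10, but only 1 of the 50 members also in GENCODE vM21 began at the same base. Library totals were 17279505 to 19136068.

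The main test was the two-sided quasi-likelihood test of edgeR (4.0.16, R 4.3.3) with TMM factors, run on the 15665 genes that default filterByExpr kept; limma 3.58.1 (voom) and DESeq2 1.42.0 stood beside it. P-values were adjusted by Benjamini-Hochberg over all tested genes and called below 0.05. The SE is the log2 fold change divided by the square root of F. Labels number the repeats without calling them pairs. The methods describe islets of each mouse divided between both glucose levels for ribosome profiling, and do not repeat this for RNA-seq. Deviations from the group means correlated between same-numbered libraries (r = 0.409 across 15665 genes, which are not independent), so both fits are given. Adding the block lowered the biological coefficient of variation to 20.4%, against 27.7%. The length trend was estimated by loess (span 0.5) of log2 deviations on log2 exonic length within each library and removed through offsets. Near-identical copies were sought by BLAST in GENCODE vM21 transcripts, where 50 of 59 members were found and 13 had a match of at least 95% identity over at least 30% of a transcript, overlapping genes included. The scripts were tested on simulated data.

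Named members were the 3 added by name, the snoRNA hosts, the 10 with the highest CPM, those past the threshold in the blocked fit or DESeq2, members on a list of known lncRNAs, and the 3 whose replicates differed most in log2 ratio. Other RNAs (Mirg, 2410021H03Rik, Pcsk2os1, Ttc39aos1, Chaserr, ENSMUSG00000120992, ENSMUSG00000120732 and neighbouring genes) were chosen after their values were seen. Members and lists were chosen with earlier results of these data known.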

Additional observations from a re-analysis of the deposited data

How the results depend on the processing

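Members past the threshold numbered 0 of 56 in edgeR without a block, as with limma-voom, RLE size factors, no composition factors, a filter of 50 reads in 2 libraries, or the length trend removed. They numbered 9 with the replicate block in edgeR (16.1%, against 6.86% of all genes tested) and in limma-voom (16.1%, against 6.19%). DESeq2 passed 5 with the block (8.93%, against 2.14%) and 2 without (3.57%, against 1.62%). With no filter on low counts 7 passed (12.5%, against 2.29%). When the block was joined to removal of the length trend, 11 passed (19.6%, against 8.71%). Fits with 1 library left out assume that a group of 1 varies like the other group. Their counts of members past the threshold are therefore not given. The study's thresholds were an unadjusted p below 0.05 and a log2 fold change beyond 0.58 either way. In edgeR 8 of 56 members passed them, against 1559 of 15665 genes tested. In DESeq2 it was 10 members, against 1483 of 11434 genes, and with the block in edgeR 16 members, against 2739 of 15665. The last 2 counts were added after seeing the data. A minimum of 500 reads gave 148 members and one of 2000 reads 26. The median log2 fold change of the snoRNA hosts ran from -0.079 to 0.43 over libraries left out.

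Over 24 named members and 360 alternative values, 15 values in 6 members reversed. With no member past the threshold without a block, no call could be lost there; of the 9 blocked calls, 4 did not pass in DESeq2 with the block (Dtnbos, ENSMUSG00000120081, ENSMUSG00000120308 and Gm27033) and 2 did not pass with the length trend removed as well (Neat1 and ENSMUSG00000120308). With the length trend removed, without and with the block, the log2 fold change was 0.26 and 0.15 for Meg3, 0.77 and 0.63 for Rian, and 0.045 and 0.054 for Norad. With 1 library left out it ran from -0.26 to 0.45 for Snhg1, -0.30 to 0.10 for Dbpht2, -0.16 to 0.17 for Norad, -0.39 to 0.26 for Rian and -2.87 to 0.30 for Dtnbos. The causes were not tested. With 2 libraries per group, p-values apply to these libraries only. Those of the blocked fit take their spread from the trend over all genes.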
